A study of Mus musculus with 16 samples.

Results

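The 9 genes Nodal, Gdf3, Tdgf1, Acvr2b, Smad3, Foxh1, Lefty1, Lefty2 and Smad7 carry or restrain nodal signalling. They were chosen by name for their place in this pathway, with earlier results of these data known. The paper had already named Lefty1 as downregulated at 6 h on the same arrays. The 9 genes are described here in differentiating mouse embryonic stem cells (mESCs) treated with a hawthorn extract. Each is read by 1 probe of the array, and all 9 probes were well above background on all 16 arrays, so that all 9 are among the 31076 genes tested. The cells were CGR8-Myh6-GFP mESCs, a feeder-free line with a fluorescent reporter driven by the promoter of a cardiac myosin gene, which had been left to differentiate in multiwell plates. On day 4 they received the vehicle DMSO, WS1442 at 0.25 mg/ml or MeOH eluate at 0.1 mg/ml, for 6 h or 24 h. WS1442 is a dry extract of hawthorn leaves and flowers, and the MeOH eluate is a fraction of it that is enriched in oligomeric procyanidins. Each time point holds 2 DMSO, 3 WS1442 and 3 MeOH eluate samples, which makes 6 groups. The labels number these samples without saying whether they came from separate cultures, so the p-values measure the spread between these samples, which may be in part technical. All groups share 1 line and 1 protocol, and both comparisons with DMSO at a time point share the same 2 DMSO samples.

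Nodal is a secreted ligand of the TGFβ superfamily that signals through activin receptors when a coreceptor such as Tdgf1 is present. The receptors phosphorylate Smad2 and Smad3, which enter the nucleus with Smad4 and reach their target genes with DNA-binding partners such as Foxh1. Lefty1 and Lefty2 are secreted inhibitors that the pathway itself switches on, so it is held in check by its own products, and in the embryo and in differentiating stem cells it drives formation of the primitive streak and of mesendoderm.

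Expression was read as the brightness of 1-colour Agilent probes, given here as log2 intensity after quantile normalization over the 16 arrays. Levels are compared only within a gene and within a time point, because probes differ in brightness and each time point was hybridised on its own slide. RNA integrity numbers lay between 8.6 and 10, and 55.1% to 63.0% of the gene spots of an array were well above background. Pou5f1, which marks pluripotent cells, was well above background on all 16 arrays, whereas the probe for Myh6, the gene behind the reporter, was so on 3 of 16 and was not tested. In RNA of whole cultures, fewer cells of a type and less RNA per cell cannot be told apart.

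The probes that read the Lefty genes, Tdgf1 and Nodal are shown by their first 30 bases, because the Lefty genes are close relatives and their values below rest on the probes reading separate transcripts. Sequences are printed in lower case, 5′ to 3′, as the scanner files give them.
Lefty1: attgccattgttcccttaatttgtcgctga
Lefty2: actcctttctccttctgccctggtgaattc
Tdgf1: tccaggacgggggcctctctcatttggcat
Nodal: gattataaacgagccatttggttctccctg
The whole probes for Lefty1 and Lefty2, 55 and 49 bases long, shared no run longer than 6 bases, within the 4 to 8 bases found over all 36 pairs of the 9 probes. Probes were compared only with each other and not with the transcript of the other gene. Whether each reads only its own transcript was therefore not tested.

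Lefty1 was strongly downregulated at 6 h with both treatments and lay at or above the DMSO level of the same time point at 24 h. At 6 h its log2 intensity was 12.42 and 12.53 on the DMSO arrays. It was 11.31, 11.44 and 11.51 with WS1442. With MeOH eluate it was 10.66, 10.66 and 10.58. The 3 groups did not overlap, with DMSO highest and MeOH eluate lowest. The log2 (fold change) of Lefty1 was -1.06 ± 0.08 with WS1442 (SE, n = 3 against 2, adjusted p in limma = 1.7e-05), which is 2.08-fold lower, and -1.84 ± 0.08 with MeOH eluate (adjusted p in limma = 6.3e-09), which is 3.59-fold lower. Ordered by size of fall, Lefty1 stood at place 113 of the 31076 genes with WS1442 and at place 21 with MeOH eluate. No single array decided either call: with any 1 of the 16 left out, the WS1442 value stayed between -1.11 and -0.999 and the MeOH eluate value between -1.89 and -1.79. The methods' t-test, which takes the spread of each gene from its own 5 arrays, gave unadjusted p = 0.0012 and 4.7e-05 for the same changes, and 0.23 and 0.052 after Benjamini-Hochberg adjustment over all genes.

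At 24 h the picture for Lefty1 differed. DMSO arrays read 11.42 and 11.35, WS1442 arrays 11.55, 11.47 and 11.47, and MeOH eluate arrays 11.80, 11.80 and 11.48. All treated arrays lay above both DMSO arrays, by a mean of 0.11 ± 0.08 with WS1442 (adjusted p in limma = 0.38) and 0.31 ± 0.08 with MeOH eluate (adjusted p in limma = 0.020). The second call was lost when DMSO replicate 1 or 2 or MeOH eluate replicate 1 or 2 was left out, with values from 0.25 to 0.34, and when arrays were scaled to their 75th percentile (0.26, adjusted p = 0.10). The effect at 24 h minus that at 6 h was 1.17 ± 0.12 for WS1442 and 2.15 ± 0.12 for MeOH eluate (adjusted p in limma = 0.00017 and 2.8e-07). Both are relative to DMSO. Slide and time point coincide, so a rise in the treated samples and a fall in the DMSO samples over time cannot be told apart.

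**Figure D1:**
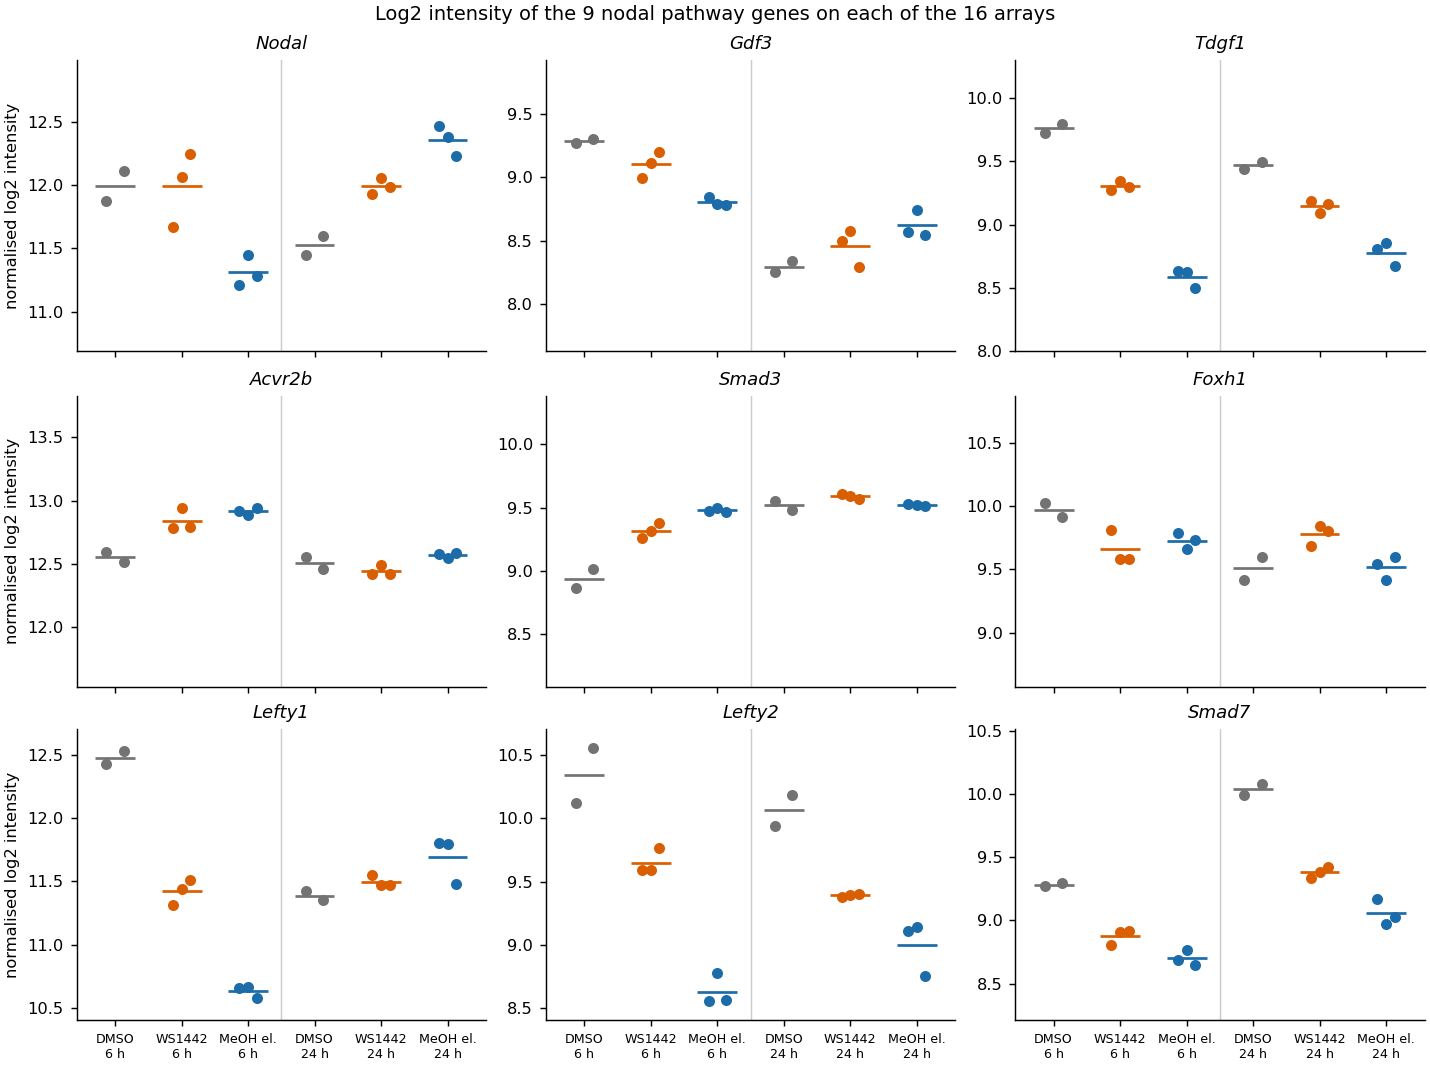
Normalised log2 intensity (vertical axis, each panel spanning the same range) of each gene on each array in the 6 groups (horizontal axis), with 1 point per array and a line at the group mean. Lefty1, Lefty2 and Tdgf1 step down from DMSO to WS1442 to MeOH eluate at 6 h, while at 24 h Lefty1 no longer does.

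Lefty2, the second secreted inhibitor, was downregulated in all 4 comparisons. At 6 h it read 10.12 and 10.56 with DMSO, 9.59, 9.59 and 9.77 with WS1442, and 8.56, 8.78 and 8.56 with MeOH eluate. At 24 h it read 9.94 and 10.19 with DMSO, 9.38, 9.40 and 9.41 with WS1442, and 9.11, 9.14 and 8.75 with MeOH eluate. At both time points the groups stood apart in the same order, with DMSO highest. The changes were -0.69 ± 0.13 and -1.71 ± 0.13 at 6 h and -0.67 ± 0.13 and -1.06 ± 0.13 at 24 h, for WS1442 and MeOH eluate in turn (adjusted p in limma = 0.0095, 1.1e-06, 0.0021 and 5.5e-05). The first of these calls was lost without DMSO replicate 2 of 6 h, at -0.47 with an adjusted p of 0.091.

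Smad7, the inhibitory Smad that blocks activation of Smad2 and Smad3 and is itself induced by the pathway, was also downregulated in all 4 comparisons. At 6 h it read 9.27 and 9.29 with DMSO, 8.81 to 8.92 with WS1442 and 8.65 to 8.76 with MeOH eluate. After 24 h Smad7 read 9.99 and 10.08 with DMSO, 9.34 to 9.42 with WS1442 and 8.98 to 9.17 with MeOH eluate. No group overlapped another at either time point. The changes were -0.41 ± 0.07 and -0.58 ± 0.07 at 6 h and -0.66 ± 0.07 and -0.98 ± 0.07 at 24 h (largest adjusted p in limma = 0.0045), and the MeOH eluate effect at 24 h was lower than that at 6 h (difference -0.39 ± 0.10, adjusted p in limma = 0.020).

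Tdgf1, the coreceptor also known as Cripto, was downregulated in all 4 comparisons with the smallest errors of the genes that fell by over 2-fold. At 6 h it read 9.72 and 9.80 with DMSO, 9.28, 9.34 and 9.30 with WS1442, and 8.63, 8.63 and 8.50 with MeOH eluate. After 24 h Tdgf1 read 9.44 and 9.49, then 9.18, 9.09 and 9.16, then 8.81, 8.85 and 8.68, in the same order of groups. The groups did not overlap at either time. Its changes were -0.45 ± 0.07 and -1.17 ± 0.07 at 6 h and -0.32 ± 0.07 and -0.69 ± 0.07 at 24 h (largest adjusted p in limma = 0.0028).

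For the ligand Nodal the time points differed in direction. At 6 h it read 11.87 and 12.11 with DMSO, 11.67, 12.07 and 12.25 with WS1442, and 11.21, 11.45 and 11.28 with MeOH eluate. WS1442 arrays lay on both sides of the DMSO arrays, and all MeOH eluate arrays lay below them. After 24 h Nodal read 11.45 and 11.60 with DMSO, 11.93, 12.06 and 11.99 with WS1442, and 12.47, 12.38 and 12.23 with MeOH eluate, so that every treated array lay above both DMSO arrays. The changes were 0.00 ± 0.13 (95% interval -0.28 to 0.28, adjusted p in limma = 0.997) and -0.68 ± 0.13 (0.0029) at 6 h, and 0.47 ± 0.13 (0.018) and 0.84 ± 0.13 (0.00040) at 24 h. With MeOH eluate, Nodal was therefore downregulated at 6 h and upregulated at 24 h, and its effect at 24 h minus that at 6 h was 1.52 ± 0.19 (adjusted p in limma = 0.00014). With WS1442 the same difference was 0.47 ± 0.19, which did not pass the test (adjusted p in limma = 0.12). The WS1442 call at 24 h was lost without DMSO replicate 1 (0.39, adjusted p in limma = 0.15) or without WS1442 replicate 2 (0.44, adjusted p = 0.055), the sample with the lowest RNA integrity number of 8.6, and was also lost when arrays were scaled to their 75th percentile (0.38, adjusted p = 0.076).

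Gdf3, a related ligand expressed in pluripotent cells, was likewise downregulated at 6 h and upregulated at 24 h with MeOH eluate. It read 9.27 and 9.30 with DMSO, 9.0 to 9.20 with WS1442 and 8.79 to 8.84 with MeOH eluate at 6 h. At 24 h it read 8.25 and 8.34, then 8.29 to 8.57, then 8.54 to 8.75. Its changes with MeOH eluate were -0.48 ± 0.09 at 6 h (adjusted p in limma = 0.0021) and 0.33 ± 0.09 at 24 h (0.019). The second call was lost without DMSO replicate 1 (0.28, adjusted p = 0.16) or MeOH eluate replicate 2 of 24 h (0.26, adjusted p = 0.073). With WS1442 its changes of -0.18 ± 0.09 and 0.16 ± 0.09 did not pass the test.

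The receptor and the signal transducer went the other way. Acvr2b, a type II activin receptor, read 12.59 and 12.52 with DMSO at 6 h, 12.79 to 12.94 with WS1442 and 12.88 to 12.94 with MeOH eluate. Smad3 read 8.86 and 9.01, then 9.26 to 9.38, then 9.47 to 9.50. Every treated array lay above both DMSO arrays for both genes at 6 h. Acvr2b rose by 0.28 ± 0.05 and 0.36 ± 0.05 and Smad3 by 0.38 ± 0.06 and 0.54 ± 0.06 (largest adjusted p in limma = 0.0066). With WS1442 the Acvr2b call was lost without DMSO replicate 2 of 6 h (0.25, adjusted p = 0.053), and that of Smad3 without DMSO replicate 1 (0.31, adjusted p = 0.055). At 24 h neither passed the test with either treatment: the changes lay between -0.07 and 0.07, and their 95% intervals lay within -0.18 to 0.19.

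Foxh1, the DNA-binding partner of the Smads, gave values that depended on single arrays. It read 10.02 and 9.92 with DMSO at 6 h, 9.81, 9.58 and 9.59 with WS1442, and 9.66 to 9.78 with MeOH eluate. At 24 h it read 9.42 and 9.60, then 9.69 to 9.84, then 9.42 to 9.60. WS1442 gave -0.31 ± 0.09 at 6 h (adjusted p in limma = 0.047) and 0.27 ± 0.09 at 24 h (0.032), and these 2 calls were lost under 6 and 3 of 10 other settings and without 11 and 3 of the 16 arrays, in turn. The 6 h call held only without WS1442 replicate 1 of 6 h, DMSO replicate 1 or 2 of 24 h, WS1442 replicate 1 of 24 h or MeOH eluate replicate 2 of 24 h, and its values ran from -0.39 to -0.26. The 24 h call ended without DMSO replicate 1 (0.18) or WS1442 replicate 2 (0.23) or 3 (0.25). With MeOH eluate the changes were -0.25 ± 0.09 at 6 h (adjusted p in limma = 0.062) and 0.01 ± 0.09 at 24 h (0.96).

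Over the 9 genes, more were downregulated than upregulated at 6 h. With WS1442 at 6 h, 5 were downregulated, where 1.37% of all genes tested were, and 2 were upregulated, where 3.94% of all genes were. With MeOH eluate at 6 h, 6 were downregulated and 2 upregulated, against 8.47% and 8.41% of all genes. Without Lefty1, 4 of the other 8 were downregulated and 2 upregulated with WS1442 at 6 h, and 5 and 2 with MeOH eluate, with medians of -0.25 and -0.53. At 24 h, 3 were downregulated and 2 upregulated with WS1442, against 12.1% and 12.4% of all genes. With MeOH eluate at 24 h, 3 went each way, against 8.48% and 9.37%. The median log2 change of the 9 was -0.31, -0.58, 0.07 and 0.01 in these 4 comparisons, where the median of all genes was -0.01, 0.00, 0.04 and 0.01. Lower by over 2-fold at an adjusted p under 0.05 was Lefty1 with WS1442 at 6 h, where 0.0451% of all genes were. With MeOH eluate at 6 h these were Lefty1, Lefty2 and Tdgf1, against 0.702% of all genes. At 24 h it was none with WS1442, against 0.344%, and Lefty2 with MeOH eluate, against 0.782%. At 6 h every treated array lay below both DMSO arrays for 6 of the 9 with WS1442 and 7 with MeOH eluate, against 15.7% and 25% of all genes, and above them for 2 and 2, against 19.9% and 25.1%. At 24 h every treated array lay below for 3 and 3, against 24.1% and 21.6%, and above for 4 and 3, against 27% and 21.8%. The direction of the background depends on the scaling: of all genes called with WS1442, 25.9% were lower at 6 h and 49.4% at 24 h, and with arrays scaled to their 75th percentile these shares were 15.4% and 60.9%. Within each slide both DMSO arrays sat in the first column, which held no treated array, so array column and treatment cannot be told apart.

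**Figure D2:**
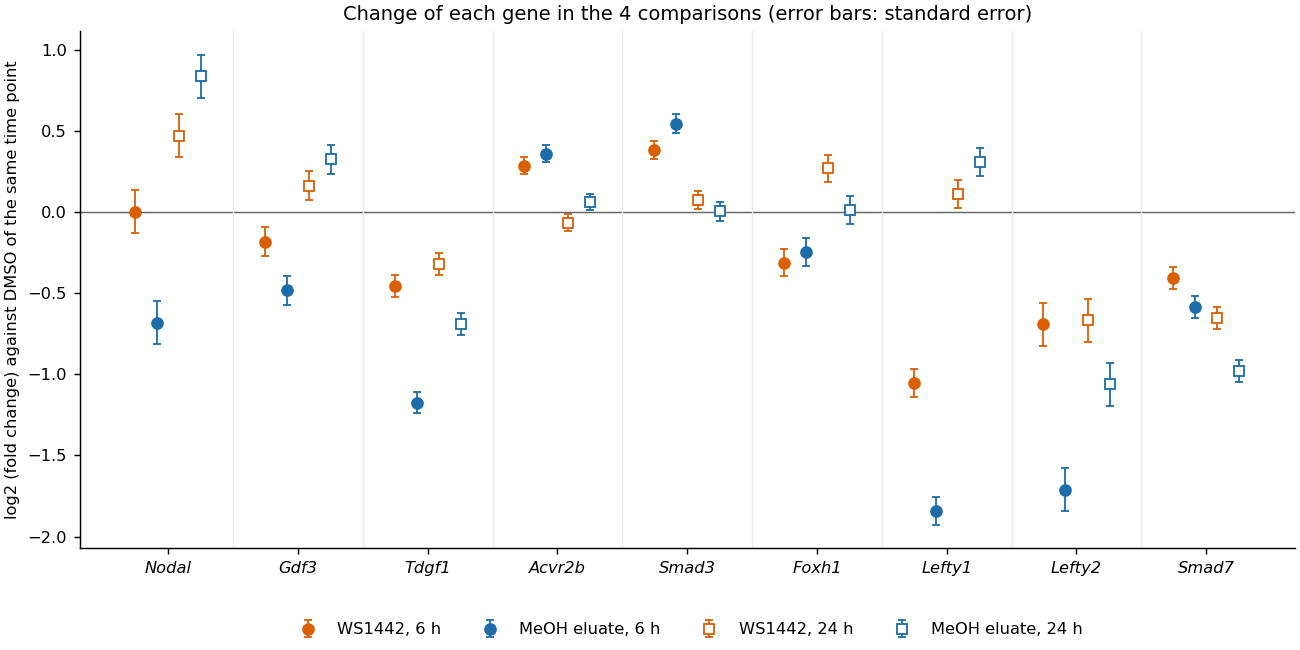
Log2 (fold change) against DMSO of the same time point (vertical axis) for each gene (horizontal axis), ordered from ligands to inhibitors, with circles for 6 h, squares for 24 h and bars of 1 standard error. Lefty1 falls by 1.06 and 1.84 at 6 h and sits at 0.11 and 0.31 at 24 h, while Lefty2, Tdgf1 and Smad7 lie below 0 in all 4 comparisons.

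To set the early fall of Lefty1 against the other 8 genes, the difference of log2 values was formed on each array and tested, so that variation between arrays that both genes share cancels. With WS1442, Lefty1 fell more than each of the other 8. The difference was smallest against Lefty2, at -0.36 ± 0.12 (95% interval -0.63 to -0.10, adjusted p in limma = 0.012), then -0.60 against Tdgf1, -0.65 against Smad7, -0.74 against Foxh1, -0.87 against Gdf3 and -1.06 against Nodal. The difference was largest against the upregulated genes, at -1.34 for Acvr2b and -1.44 for Smad3. Lefty1 was made the reference for a fall already known from these arrays, so the differences describe its size and are no separate support for it. Since Lefty1 fell by so much, most genes differ from it in this test, and the difference passed below 0 for 90.1% of all genes with WS1442. Without DMSO replicate 1 of 6 h the difference from Lefty2 was -0.20 and did not pass (adjusted p in limma = 0.20).

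With MeOH eluate the same test separated Lefty1 from 7 of the 8, and from 98.2% of all genes. The exception was Lefty2, whose fall was indistinguishable from that of Lefty1 at this precision: the difference was -0.13 ± 0.12, with a 95% interval from -0.39 to 0.13 (adjusted p in limma = 0.29). Tdgf1 came next at -0.67 ± 0.09, then Nodal at -1.16 ± 0.13, Smad7 at -1.26 ± 0.11, Gdf3 at -1.36 ± 0.11 and Foxh1 at -1.60 ± 0.17, all with adjusted p in limma of at most 8.5e-06. Acvr2b and Smad3 lay at -2.20 and -2.39.

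**Figure D3:**
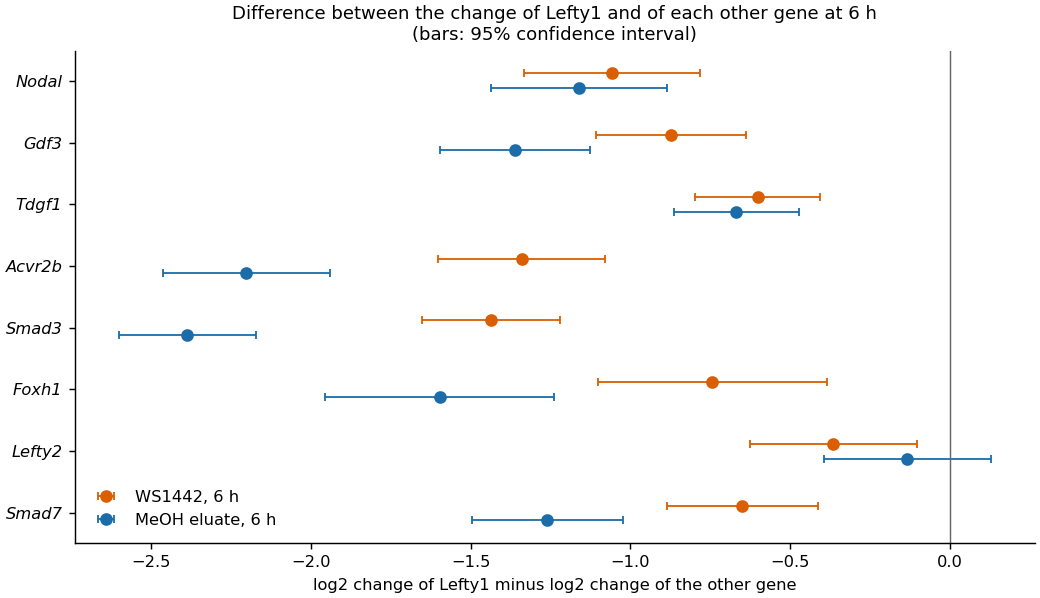
Log2 change of Lefty1 minus log2 change of each other gene at 6 h (horizontal axis) with 95% confidence intervals, for WS1442 and MeOH eluate. Values left of 0 mean a larger fall of Lefty1, and of the 16 intervals only that of Lefty2 with MeOH eluate, -0.39 to 0.13, crosses 0.

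The 2 preparations were given at different doses, 0.25 and 0.1 mg/ml, so the following values hold for these doses only. At 6 h, 5 of the 9 genes were lower with MeOH eluate than with WS1442, where 7.51% of all genes were, and none was higher, where 4.66% were (Smad3 was higher at an unadjusted p under 0.05). Of all genes called in this comparison 61.7% were lower, and 79.7% with arrays scaled to their 75th percentile. Lefty2 differed by -1.02 ± 0.12, Lefty1 by -0.79 ± 0.08, Tdgf1 by -0.72 ± 0.06, Nodal by -0.68 ± 0.12 and Gdf3 by -0.30 ± 0.08 (largest adjusted p in limma = 0.027, for Gdf3). The Gdf3 call was lost without 5 of the 16 arrays, each of them a 6 h array, namely WS1442 replicate 2 or 3 or any MeOH eluate replicate, with values from -0.32 to -0.25, and under 2 of 10 other settings, the methods' t-test not counted. Smad7, Smad3, Acvr2b and Foxh1 did not pass the test, with differences from -0.18 to 0.16.

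At 24 h, 4 of the 9 were lower with MeOH eluate than with WS1442, against 6.87% of all genes, and none was higher, against 7.48% (3 were at an unadjusted p under 0.05 in limma). Tdgf1 differed by -0.37 ± 0.06, Smad7 by -0.32 ± 0.06, Lefty2 by -0.39 ± 0.12 and Foxh1 by -0.26 ± 0.08 (largest adjusted p in limma = 0.039). The calls of Lefty2 and Foxh1 were each lost without 4 of the 16 arrays: that of Lefty2 without WS1442 replicate 1, 2 or 3 or MeOH eluate replicate 3, with values from -0.40 to -0.27, and that of Foxh1 without WS1442 replicate 2 or 3 or MeOH eluate replicate 1 or 2, with values from -0.27 to -0.21. They were also lost under 4 and 3 of 10 other settings, in turn, the methods' t-test not counted. Nodal lay higher on every MeOH eluate array, by 0.37 ± 0.12 with an adjusted p of 0.051, and Lefty1 lay higher by 0.20 ± 0.08 with an adjusted p of 0.10.

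Tested as the effect at 24 h minus that at 6 h, the time course split the 9 genes. With WS1442, 2 rose from 6 h to 24 h relative to DMSO, Lefty1 and Foxh1, where 5.49% of all genes did, and 2 fell, Acvr2b and Smad3, where 6.92% did. With MeOH eluate, 5 rose (Lefty1, Nodal, Gdf3, Lefty2 and Tdgf1), where 3.82% of all genes did, and 3 fell (Smad3, Smad7 and Acvr2b), where 3.69% did. The Lefty2 difference with MeOH eluate was 0.65, close to the threshold (adjusted p in limma = 0.049), and this call was lost under 6 of 9 other settings and without 11 of the 16 arrays, with values from 0.43 to 0.87 over both. The WS1442 effect on Lefty2 differed between the time points by 0.02 ± 0.19, with a 95% interval from -0.38 to 0.42, and that on Lefty1 by 1.17, a contrast between the 2 inhibitors that was not tested. Of all genes called in the WS1442 time test 55.8% fell, and with arrays scaled to their 75th percentile 72.5% did.

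**Figure D4:**
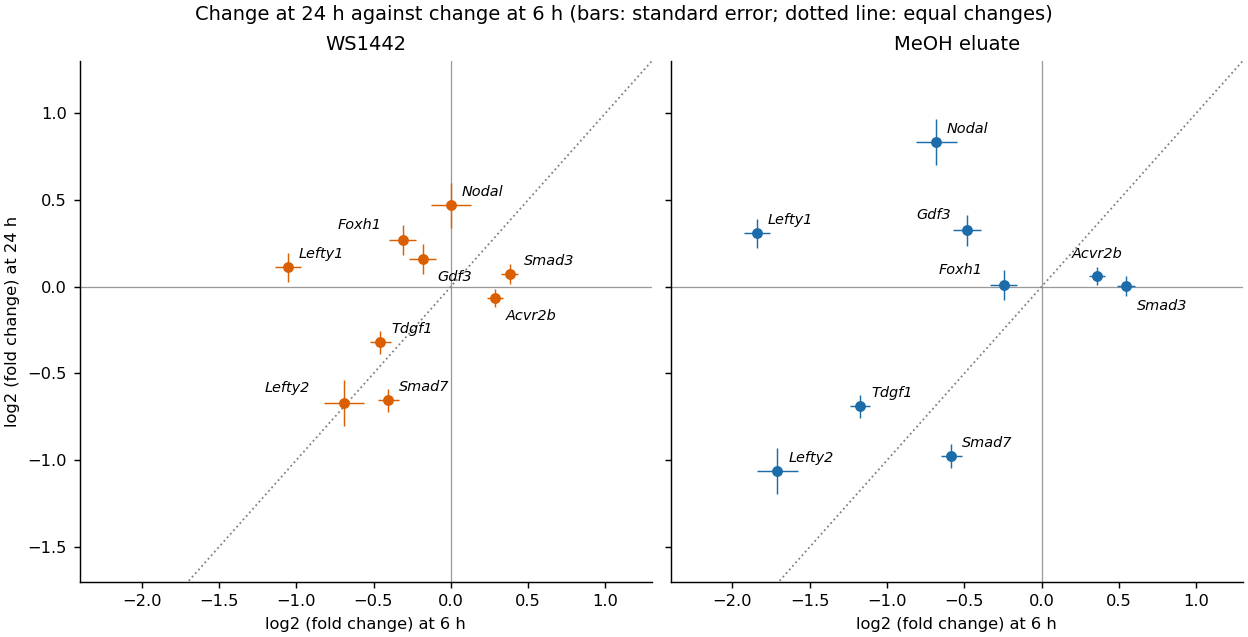
Log2 (fold change) against DMSO at 24 h (vertical axis) against that at 6 h (horizontal axis) for the 9 genes, with WS1442 on the left and MeOH eluate on the right, bars of 1 standard error and a dotted line where both changes are equal. Lefty1 and, with MeOH eluate, Nodal lie far above the line, whereas Smad3, Acvr2b and Smad7 lie below it in both panels. The Smad7 difference with WS1442 did not pass the test (-0.25, adjusted p in limma = 0.11).

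Of 36 other genes of the pathway, 35 were tested. Acvr1b, a type I activin receptor, was well above background on 3 of 16 arrays and was left out. With WS1442 at 6 h, 1 of the 35 was downregulated and 2 were upregulated, against 1.37% and 3.94% of all genes, with a median of -0.01. With MeOH eluate at 6 h, 6 went each way, against 8.47% and 8.41%, with a median of -0.10. At 24 h, 7 went each way with WS1442, against 12.1% and 12.4%, and 6 were downregulated and 4 upregulated with MeOH eluate, against 8.48% and 9.37%, with medians of -0.04 and -0.02. The single downregulated gene with WS1442 at 6 h was Pmepa1, a membrane protein induced by TGFβ signalling that sequesters Smad2 and Smad3. The 2 upregulated ones were Tgfb2, a ligand, at 0.42 ± 0.09 and Tgfbr2, a receptor for TGFβ, at 0.34 ± 0.09, both named after their values were seen.

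Pmepa1 had the same order of groups as Lefty1 at 6 h. At 6 h it read 8.76 and 8.66 with DMSO, 7.90, 8.06 and 7.94 with WS1442, and 7.45, 7.60 and 7.19 with MeOH eluate, with no overlap between groups. The changes were -0.75 ± 0.11 and -1.30 ± 0.11 (adjusted p in limma = 0.0025 and 3.2e-06). At 24 h they were -0.01 ± 0.11 and 0.18 ± 0.11, and neither passed the test.

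Among the 8 secreted or membrane-bound antagonists, none passed the test in limma with WS1442 at 6 h, where 1.37% of all genes were downregulated and 3.94% upregulated. There 3 were lower at an unadjusted p under 0.05, a threshold at which the share of all genes was not taken. With MeOH eluate at 6 h, 3 were downregulated and 1 upregulated, against 8.47% and 8.41% of all genes. Fst, follistatin, which binds activins, changed by -1.01 ± 0.07 with MeOH eluate at 6 h, and with WS1442 its change was -0.19 ± 0.07 (adjusted p in limma = 0.14). Cer1, a secreted inhibitor of Nodal made by anterior endoderm, read 5.13 and 5.43 with DMSO at 6 h, 4.12, 4.25 and 4.79 with WS1442 and 4.00, 3.26 and 3.14 with MeOH eluate. Its fall with MeOH eluate was -1.81 ± 0.27 (adjusted p in limma = 0.00037), but there its probe was well above background on 1 of 3 arrays. At 24 h Cer1 changed by -1.10 ± 0.27 with WS1442 (adjusted p in limma = 0.0075), with its probe well above background on all 3 arrays, and by -0.04 ± 0.27 with MeOH eluate, which did not pass the test. Bambi, a receptor-like protein without kinase activity, was raised by 1.07 ± 0.13 with WS1442 at 24 h, and with MeOH eluate its change was 0.25 ± 0.13 (0.21). Cfc1, a coreceptor related to Tdgf1, changed at 24 h by -0.83 ± 0.16 and -1.24 ± 0.16 and did not pass the test at 6 h.

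Of 12 genes that nodal signalling is known to switch on in the streak and mesendoderm, 5 were downregulated with WS1442 at 6 h, 10 with MeOH eluate at 6 h, 4 with WS1442 at 24 h and 9 with MeOH eluate at 24 h, and in limma none was upregulated in any of the 4, at an adjusted or at an unadjusted p under 0.05 (0 of 12). Of all genes, 1.37%, 8.47%, 12.1% and 8.48% were downregulated in these 4 comparisons. The median log2 changes of the 12 were -0.34, -0.80, -0.25 and -0.57. The count of 5 was 3 without DMSO replicate 1 or 2 or WS1442 replicate 2 or 3 of 6 h. The 5 were Mixl1, Gsc, Otx2, Eomes and Wnt3, the last 2 at -0.39 ± 0.09 and -0.41 ± 0.04 and named after their values were seen. At 24 h the 4 with WS1442 were Mixl1, Sox17, Wnt3 and Mesp1.

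Mixl1, a homeobox gene of the streak, read 10.97 and 10.87 with DMSO at 6 h, 10.04, 9.91 and 9.85 with WS1442, and 8.57, 8.58 and 8.45 with MeOH eluate. Gsc, the homeobox gene of the organiser, read 11.84 and 12.07, then 10.97, 10.89 and 11.06, then 9.23, 9.39 and 9.26. Both were separated completely between the 3 groups. Mixl1 changed by -0.99 ± 0.07 and -2.39 ± 0.07 at 6 h and by -0.47 ± 0.07 and -1.20 ± 0.07 at 24 h, in all cases with adjusted p in limma of at most 0.00022. Gsc changed by -0.98 ± 0.12 and -2.66 ± 0.12 at 6 h. At 24 h its change was 0.24 ± 0.12 with WS1442, which did not pass the test, and -0.79 ± 0.12 with MeOH eluate.

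Lhx1 and Otx2, transcription factors of the anterior mesendoderm and head organiser, changed by -1.21 ± 0.16 and -1.27 ± 0.14 with MeOH eluate at 6 h. Sox17, which specifies endoderm, changed at 24 h by -1.24 ± 0.14 with WS1442 and -1.65 ± 0.14 with MeOH eluate, and its effects at 24 h were lower than those at 6 h (differences -1.0 ± 0.20 and -0.99 ± 0.20, adjusted p in limma = 0.0069 and 0.0068).

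**Figure D5:**
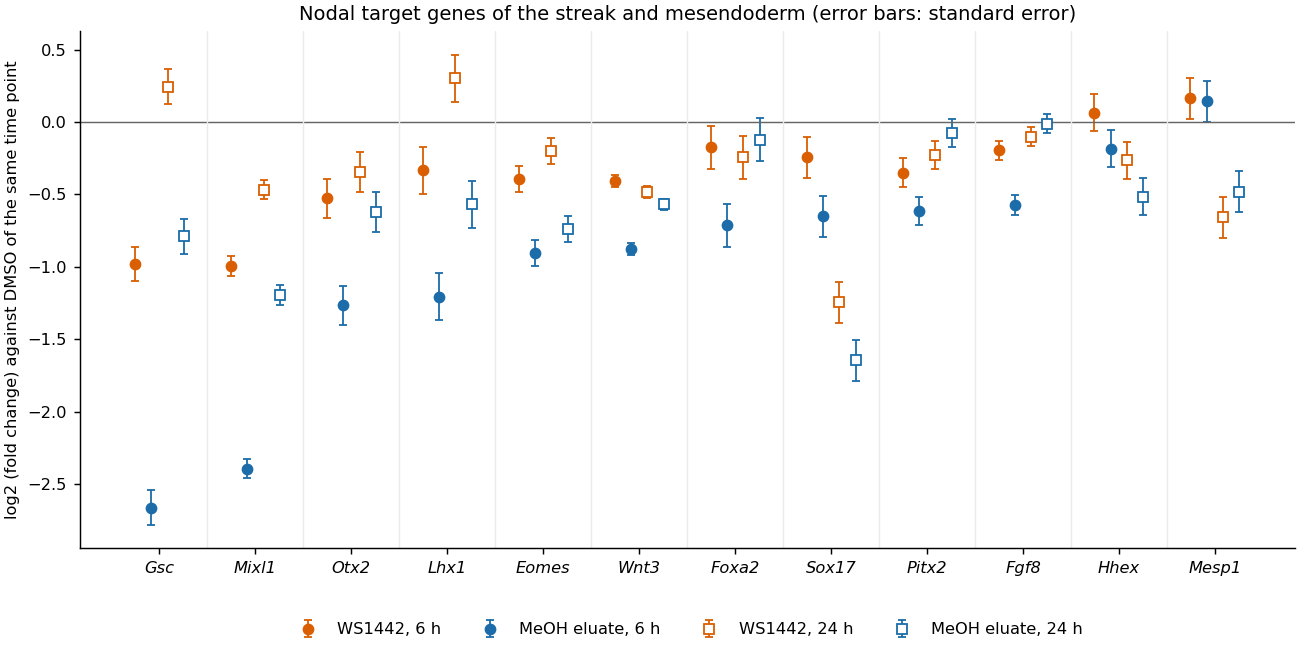
Log2 (fold change) against DMSO (vertical axis) of the 12 nodal target genes (horizontal axis, ordered by the MeOH eluate change at 6 h), with circles for 6 h, squares for 24 h and bars of 1 standard error. Gsc and Mixl1 fall furthest with MeOH eluate at 6 h, by 2.66 and 2.39, and Sox17 falls furthest at 24 h.

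Markers of the cell types such a culture can hold were read beside these genes. Of all genes, 1.37%, 8.47%, 12.1% and 8.48% were downregulated with WS1442 and MeOH eluate at 6 h, then at 24 h. In the same order, 3.94%, 8.41%, 12.4% and 9.37% were upregulated, and all marker counts below stand against these shares. Several lie near them, such as the 2 of 12 pluripotent cell markers that went each way with WS1442 at 24 h. Of 10 streak and mesoderm markers, 3 of which are also in the target list, 3 were downregulated with WS1442 and 5 with MeOH eluate at 6 h, where 1 was upregulated, and 3 and 5 were downregulated at 24 h. Evx1, a homeobox gene of the streak, lay at -0.69 ± 0.09 and -1.84 ± 0.09 at 6 h. The log2 of their summed intensity lay between 12.48 and 12.50 with DMSO at 6 h, 12.00 and 12.14 with WS1442, and 11.48 and 11.60 with MeOH eluate. At 24 h it lay between 12.31 and 12.34, then 11.98 and 12.06, then 11.67 and 11.83. The summed level stepped down in the order of groups that Lefty1, Lefty2 and Tdgf1 had at 6 h, and had that order again at 24 h, when Lefty1 did not. The sum is weighted to the brightest probes, Mixl1 and Evx1 among them, and single markers did not all follow it. Mesp2, a mesoderm transcription factor named after its values were seen, had mean levels of 8.23, 8.42 and 8.69 with DMSO, WS1442 and MeOH eluate at 6 h. Their part in the falls of the 9 genes was not tested.

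Of 8 endoderm markers tested, 1, 3, 3 and 4 were downregulated in the 4 comparisons (WS1442 and MeOH eluate at 6 h, then at 24 h), and 1 was upregulated with WS1442 at 24 h. These counts are not separate from those of the target list, which also holds Sox17 and Foxa2, both among the 3 downregulated with MeOH eluate at 6 h. Gata6, a transcription factor of early endoderm, lay at -0.62 ± 0.14 and -1.79 ± 0.14 at 6 h. The summed endoderm level lay between 11.24 and 11.27 with DMSO at 6 h, 10.89 and 11.01 with WS1442, and 10.57 and 10.73 with MeOH eluate. Of 12 pluripotent cell markers, 1 and 3 were downregulated at 6 h, among the 3 Nanog at -0.94 ± 0.17 with MeOH eluate, while at 24 h 2 went each way with WS1442 and 1 was upregulated with MeOH eluate. Their summed level lay between 14.78 and 14.85 with DMSO at 6 h, was 14.74 on all WS1442 arrays, and lay between 14.70 and 14.73 with MeOH eluate, a narrower range in the same order and also without overlap. This sum is weighted to Pou5f1 and Dppa5a, the latter named for its brightness. With DMSO, WS1442 and MeOH eluate at 6 h, Pou5f1 had a mean of 13.71 each time, and Dppa5a had 13.53, 13.40 and 13.33. At 24 h the summed pluripotent level lay between 14.03 and 14.24 on the 8 arrays, and the groups overlapped.

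Of 7 neuroectoderm markers, 2 were downregulated and 1 upregulated with MeOH eluate at 6 h, with Hes5 at -1.18 ± 0.09 and Nes at 0.40 ± 0.08. None passed the test in limma with WS1442 at 6 h, where 2 were lower at an unadjusted p under 0.05. Hes5 is the brightest of the 7, with a mean of 13.24 with DMSO at 6 h against 11.90 for Nes, and weighs most in their sum. The summed neuroectoderm level at 6 h lay between 13.76 and 13.90 with DMSO, 13.66 and 13.70 with WS1442, and 13.31 and 13.37 with MeOH eluate, so the streak, endoderm, pluripotent and neuroectoderm sums all had the same order of groups at 6 h. The other sums did not. The cardiac sum lay between 14.38 and 14.53 with DMSO, 14.12 and 14.32 with WS1442, and 14.13 and 14.28 with MeOH eluate. The endothelial and blood sum lay between 8.94 and 9.22, then 8.87 and 9.23, then 9.20 and 9.26, with overlap. The cardiac sum rests almost wholly on Actc1, an actin gene named for its brightness. Its mean with DMSO at 6 h was 14.41, against 7.83 for the next brightest cardiac marker, so this sum mainly reads 1 gene. At 24 h, 1 of the 7 neuroectoderm markers was downregulated with each treatment, and 3 and 2 were upregulated. Of 8 cardiac markers, 1 and 2 were upregulated at 6 h, and at 24 h 3 were downregulated and 1 upregulated with WS1442 and 4 downregulated with MeOH eluate. Myl7, an atrial myosin light chain, lay at 0.61 ± 0.16 and 1.05 ± 0.16 at 6 h and at -1.17 ± 0.16 and -2.02 ± 0.16 at 24 h. Of 7 endothelial and blood markers, none passed the test at 6 h in limma, where 1 was higher with WS1442 and 0 differed with MeOH eluate at an unadjusted p under 0.05. At 24 h, 1 was downregulated with WS1442, and 2 were downregulated and 1 upregulated with MeOH eluate, with Tal1, a blood transcription factor, at -1.19 ± 0.16 and -1.89 ± 0.16. The upregulated one was Hbb-bh1, an embryonic globin, at 1.45 ± 0.38 (adjusted p in limma = 0.015). Its probe was well above background on only 1 of the 2 DMSO arrays of 24 h. The part of these cell types in the changes of the 9 genes was not tested either.

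As a description of which profiles were most like that of Lefty1, each gene was centred on the mean of its time point and correlated with Lefty1 over the 16 arrays, among 1333 genes that changed by over 2-fold in at least 1 comparison with DMSO. The arrays share their groups, so these values mostly restate the group means. Among the annotated genes outside the set of 9 with the highest Pearson correlations were Pmepa1 at 0.95, Cav1, the caveolar coat protein, at 0.90, Mal, a membrane raft protein, at 0.88 and Ppp4r4, a phosphatase subunit, at 0.87. Within the set, Gdf3 stood at 0.83, Tdgf1 at 0.75, Lefty2 at 0.74 and Nodal at 0.67. Smad7 and Foxh1 stood at 0.36 and 0.35, and Acvr2b and Smad3 at -0.78 and -0.91.

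RefSeq promoter sequence on GRCm38.p6 was at hand for 4 of the 9 genes, Nodal, Tdgf1, Acvr2b and Smad3, and not used here for Lefty1, Lefty2, Gdf3, Foxh1 and Smad7. The 250 bases upstream of the start of Tdgf1, downregulated in all 4 comparisons, and of Nodal, which changed direction with MeOH eluate, are shown 5′ to 3′ on the strand of the gene, with CAGAC, the Smad binding element, in capitals. Tdgf1 lies on the minus strand of chr9:110946159-110946408 and Nodal on the plus strand of chr10:61417722-61417971.
Tdgf1: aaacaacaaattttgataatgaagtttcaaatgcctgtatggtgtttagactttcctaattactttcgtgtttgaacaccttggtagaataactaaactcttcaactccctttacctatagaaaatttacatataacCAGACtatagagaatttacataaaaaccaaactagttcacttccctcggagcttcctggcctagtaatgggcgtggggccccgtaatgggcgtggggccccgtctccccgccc
Nodal: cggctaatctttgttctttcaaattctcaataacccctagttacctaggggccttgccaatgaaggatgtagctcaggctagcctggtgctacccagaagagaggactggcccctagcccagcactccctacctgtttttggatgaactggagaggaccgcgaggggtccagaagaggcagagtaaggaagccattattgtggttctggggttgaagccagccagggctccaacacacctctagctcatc
CAGAC was searched on both strands, as were AATCCACA and AATACACA, which Foxh1 binds, and the palindromic Smad box GTCTAGAC, and no 2 matches overlapped. In the 300 bases searched, from 250 before to 50 after the start, CAGAC occurred in Tdgf1, at position -113 from the start, and on the opposite strand in Acvr2b, at -233, so in 2 of 4, where 49.6% of 32851 promoters hold it. AATCCACA, AATACACA and GTCTAGAC occurred in none of the 4, where 0.855%, 0.98% and 0.213% of all promoters hold them.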

How the data were processed

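RNA of each of the 16 samples was labelled with Cy3 and hybridised to its own 1-colour Agilent array. The intensities deposited by the authors come from Agilent Feature Extraction, background corrected and detrended within each array and not normalized between arrays. A deposited table holds linear intensities quantile normalized over all arrays by the authors. Each of its 16 columns correlated best with its own array, and the 9 genes differed from the values used here by at most 0.0134 on the log2 scale. Per the file headers, flags of 0 or 1 mark spots that are non-uniform or well above background. The column of gene names in the scanner files holds accessions, so genes were named through RefSeq accessions without version, which named 31064 of 60273 gene probes.

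Log2 intensities were quantile normalized with limma 3.58.1 in R 4.3.3. Sequences and figures used Python 3.11.15. Non-uniform spots, 3 to 25 per array, were set missing, repeated spots of a probe were averaged, and a probe was kept if all arrays of some group read it well above background and every group gave a value. This left 36718 probes, and the brightest probe stood for each of 31076 genes. The means of the 6 groups were estimated per gene (lmFit, eBayes with trend), and p-values were adjusted over all genes by the Benjamini-Hochberg method, with calls at an adjusted p under 0.05. The difference between Lefty1 and each other gene was fitted in the same way on per-array differences, without trend. The procedure was tested on simulated data. Changes are log2 values with standard errors. The number of arrays limits the precision.

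Of the pathway and target lists, genes past the adjusted threshold and 2-fold in a comparison with DMSO are named, at most 8 per list, and of each marker list at most 3 called genes. Of the 5 genes most like Lefty1, 1 is not reported here. The genes and lists were chosen with earlier results of these data known. Alternatives varied the scaling, the background method, the filter on dim probes, the probes used per gene, the origin of the values, the methods' t-test (Student's t-test on the same values, named there for pairwise comparisons in general and not for the arrays, and Benjamini-Hochberg adjusted here), variance prior, blocks, array weights, samples fitted, threshold and each array left out. Each time point has its own slide, and no level at 6 h is set against one at 24 h.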

Additional observations from a re-analysis of the deposited data

Results flagged for a closer look

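For 12 results among the 9 genes, the effect at 24 h differed from that at 6 h by a test of the difference itself (interaction contrast in limma, adjusted over all genes). With WS1442 the differences were 1.17 for Lefty1 (adjusted p = 0.00017), 0.58 for Foxh1 (0.0078), -0.35 for Acvr2b (0.0076) and -0.31 for Smad3 (0.024). With MeOH eluate they were 2.15 for Lefty1 (adjusted p = 2.8e-07), 1.52 for Nodal (0.00014), 0.81 for Gdf3 (0.0010), 0.65 for Lefty2 (0.049) and 0.49 for Tdgf1 (0.0047), and -0.54 for Smad3 (0.00070), -0.39 for Smad7 (0.020) and -0.30 for Acvr2b (0.019). Slide and time point coincide, but each effect is taken against DMSO of the same slide. The result for Lefty2 was the least stable of the 12: it did not pass under 6 of 9 alternative settings or without 11 of the 16 arrays, with values from 0.43 to 0.87; it passed only without DMSO replicate 1, WS1442 replicate 3 or MeOH eluate replicate 2 of 6 h, or DMSO replicate 2 or MeOH eluate replicate 3 of 24 h. Smad3 with WS1442, and Smad7 and Acvr2b with MeOH eluate, did not pass under 1, 1 and 2 of the 9 settings and without 4, 3 and 2 of the arrays, in turn. For Smad3 these were DMSO replicate 1 and WS1442 replicate 3 of 6 h and of 24 h (-0.30 to -0.23), for Smad7 DMSO replicates 1 and 2 of 6 h and replicate 2 of 24 h (-0.41 to -0.35), and for Acvr2b DMSO replicate 2 of 6 h and replicate 1 of 24 h (-0.26 and -0.25). The other 8 passed under all 9 settings and without any 1 array.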

How the results depend on the processing

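Of 62 member results called at an adjusted p under 0.05, 46 stayed called under every alternative setting other than the methods' t-test and without any 1 array, and 16 were lost at least once. The methods' t-test with Benjamini-Hochberg adjustment called 0 of the 9 genes in each of the 4 comparisons with DMSO (6, 9, 4 and 5 at an unadjusted p under 0.05), and 0, 0, 0 and 2 of the 12 target genes, with Lefty1 at the same -1.06 and -1.84 but adjusted p = 0.23 and 0.052. Only 5 arrays enter each of its comparisons. The share of all genes that this t-test called was not taken, so its counts stand without a background. Adding the 2-fold threshold to an unadjusted p, to an adjusted p or to the methods' t-test left 1, 3, 0 and 1 of the 9 genes and 0, 4, 1 and 2 of the target genes (WS1442 and MeOH eluate at 6 h, then at 24 h). Target genes called with WS1442 at 6 h numbered 3 with the replicate number as a block and 3 with only the 8 arrays of the time point. Deviations of samples with the same number had correlations from -0.10 to 0.30 at 6 h and from -0.23 to 0.10 at 24 h. For samples with different numbers they ran from -0.20 to 0.25 and from -0.15 to 0.23. The deviations of the 2 DMSO arrays of a time point mirror each other, so few pairs inform this check and it cannot exclude pairing. The labels do not state a pairing, and the block is given here only. Under the block, the Foxh1 calls with WS1442, and in the time test Smad3 with WS1442 and Smad7 and Acvr2b with MeOH eluate, no longer passed, while Nodal in the direct comparison at 24 h and Nodal and Gdf3 in the WS1442 time test did, and no other call of the 9 genes changed. With 1 array left out, the called members ranged from 4 to 7 with WS1442 at 6 h (4 without DMSO replicate 2) and from 3 to 5 with WS1442 at 24 h (3 without DMSO replicate 1 or WS1442 replicate 2), and from 8 to 9 and from 4 to 6 with MeOH eluate at 6 h and 24 h. Target genes ranged from 3 to 5, 9 to 10, 4 to 5 and 6 to 9 in the order given above (6 without either DMSO replicate of 24 h). A left-out DMSO sample leaves 1, which is then assumed to vary like the other groups. The sign of a change of the 9 genes turned only where it passed the test in neither setting. Scaling to the 75th percentile gave -0.00915 for Foxh1, -0.0238 for Acvr2b and -0.0190 for Smad3 with MeOH eluate at 24 h, -0.0205 for Foxh1 and -0.0495 for Acvr2b in the direct comparison at 6 h, and -0.0885 for Lefty2 in the WS1442 time test, which was -0.10 with normexp background correction. The block gave -0.0540 for Nodal with WS1442 at 6 h and -0.0152 for Foxh1 with MeOH eluate at 24 h, and the array row as a block gave -0.0120 for the latter. With 1 array left out, Nodal with WS1442 at 6 h ranged from -0.13 to 0.17, Foxh1 with MeOH eluate at 24 h from -0.0772 to 0.0997, Smad3 there from -0.0289 to 0.0350, Lefty2 in the WS1442 time test from -0.20 to 0.24, and the Lefty1 minus Lefty2 difference with MeOH eluate from -0.30 to 0.0395.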
